A study of Homo sapiens with 4 samples.

Results

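The tight junction genes described here were 5 claudins (CLDN1, CLDN3, CLDN4, CLDN7 and CLDN12), occludin (OCLN), the scaffolds TJP1 and TJP3 and the junctional adhesion molecule gene F11R. These 9 genes were chosen by name, with earlier results of these data known. Their probe sets are those that the platform annotation assigns to 1 of them alone. There were 16 such probe sets of 54675 on the array, and they covered 8 of the 9 genes. No probe set was named for F11R, which was not analysed here. The mean signal exceeded 300 units, the threshold for testing, for 7 of the 8 genes, so that 7 of 8721 tested genes were tight junction genes of this set. CLDN1 stayed below it.

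The cells were HCT116, an established line from a human colon carcinoma, cultured as monolayers or as multicellular spheroids (MCS). There were 2 monolayer cultures and 2 spheroid cultures, all untreated and of the same parental line, each on 1 oligonucleotide array. The comparison was made to characterize MCS as a model of poorly supplied tumour tissue. MCS were formed from cell suspensions in coated wells that were inverted to let the cells settle, and RNA came from whole cultures. The proliferating rim and the quiescent core are therefore averaged in each spheroid value, and signal from more expressing cells cannot be told apart from more RNA per cell.

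Tight junctions seal the space between neighbouring epithelial cells near their apical side. Claudins span the membrane and form the strands that set which ions and solutes pass between cells. Occludin is a membrane protein of the same strands, F11R encodes the adhesion molecule JAM-A, and the ZO proteins encoded by TJP1 and TJP3 tie the membrane proteins to actin beneath the membrane. In colon carcinoma, claudins and occludin are studied as markers of epithelial differentiation, and repressors such as SNAI1 and ZEB1 lower their transcription by binding E-boxes in promoters.

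The promoters of CLDN3, CLDN4 and CLDN7 are shown. Claudins were the largest family in the set, and the first 2 had the largest differences between culture types. CLDN7 was the only claudin of the set with an E-box in a window. The sequences are the 250 bases before a RefSeq start site (GRCh38.p14), read 5′ to 3′ on the strand of the gene, and capitals mark the E-box CAGGTG or its reverse complement CACCTG. The CLDN3 window is chr7:73770271-73770520 on the minus strand, the CLDN4 window is chr7:73830746-73830995 on the plus strand and the CLDN7 window is chr17:7262479-7262728 on the minus strand.
CLDN3: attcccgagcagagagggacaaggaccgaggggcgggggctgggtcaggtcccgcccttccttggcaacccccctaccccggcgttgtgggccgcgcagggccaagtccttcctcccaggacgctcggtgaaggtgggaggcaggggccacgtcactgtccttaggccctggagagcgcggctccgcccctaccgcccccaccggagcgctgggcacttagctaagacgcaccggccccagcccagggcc
CLDN4: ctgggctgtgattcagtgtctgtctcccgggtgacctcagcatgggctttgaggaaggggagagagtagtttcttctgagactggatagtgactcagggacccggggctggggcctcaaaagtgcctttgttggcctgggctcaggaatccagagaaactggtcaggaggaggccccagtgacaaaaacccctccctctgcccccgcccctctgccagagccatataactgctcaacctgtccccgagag
CLDN7: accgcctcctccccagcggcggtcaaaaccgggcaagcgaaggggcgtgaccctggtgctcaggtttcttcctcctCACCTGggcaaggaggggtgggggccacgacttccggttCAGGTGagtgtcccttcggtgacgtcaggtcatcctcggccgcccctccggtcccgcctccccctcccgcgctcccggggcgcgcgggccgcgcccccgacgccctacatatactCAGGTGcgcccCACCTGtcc

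The CLDN7 window held 4 E-boxes, which began 174, 135, 20 and 9 bases before the start site, whereas the CLDN3 and CLDN4 windows held none. The windows of CLDN1, of CLDN12 and of the other CLDN7 start site, not shown, held none either. The set had 14 windows for 8 genes, since some genes have several start sites, and F11R had none. An E-box was present in 5 of the 14 windows, those of CLDN7 (1 of 2 start sites), OCLN (both), TJP1 (1 of 4) and TJP3 (1 of 2), against 17.5% of all 35116 promoter windows of the same length. The hypoxia response element core ACGTG, searched on both strands, was present in 3 member windows (18.5% of all windows), of which 1 was that of CLDN3. Its other form GCGTG was present in 6 (32.2% of all windows). These matches describe letters in a window and not binding.

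CLDN3 and CLDN4 showed the largest differences. CLDN4, a claudin that tightens the barrier to sodium, had signals of 311.8 and 345.7 in monolayers and 2773 and 2007 in MCS. Both MCS arrays lay far above both monolayer arrays, and the mean signal was 7.27-fold higher. The log2 difference, here and below spheroid minus monolayer of log2(signal + 32) with its standard error and n = 2 per group, was 2.73 ± 0.21 (limma, adjusted p = 2.1e-06). CLDN3, a barrier-forming claudin, had signals of 95.1 and 132.8 in monolayers and 741.2 and 832.2 in MCS. The mean was 6.91-fold higher in MCS and the arrays of the groups did not overlap. Its log2 difference was 2.50 ± 0.27 (limma, adjusted p = 2.59e-05). Among the 8721 genes ordered from the largest increase, CLDN4 ranked 67 and CLDN3 ranked 85.

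CLDN7 and CLDN12 rose by less. CLDN7, which lies along the lateral membrane and binds the adhesion molecule EPCAM, had signals of 2407 and 2608 in monolayers and 4712 and 4934 in MCS. The groups were well apart relative to the spread within each, with a log2 difference of 0.94 ± 0.14 (limma, adjusted p = 3.49e-04). CLDN12, a claudin without the C-terminal motif that binds ZO proteins, had signals of 1319 and 1391 in monolayers and 2349 and 2628 in MCS. Its log2 difference was 0.86 ± 0.17 (limma, adjusted p = 0.00149), and its mean was 1.84-fold higher in MCS.

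CLDN1, another barrier-forming claudin, was dim on all arrays. Its brighter probe set gave 83.1 and 71.4 in monolayers and 155.2 and 74.9 in MCS, so that the groups overlapped. When all genes were fitted without a signal threshold, the log2 difference of CLDN1 was 0.37 ± 0.44 with a 95% interval of -0.65 to 1.40 (limma, adjusted p = 0.678). This interval does not exclude a change as large as that of CLDN7 or CLDN12. The other CLDN1 probe set ran from 3.03 to 39.6, close to the 4.47 to 35.0 of the unspiked bacterial control probe sets.

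Occludin rose, with a wider spread between cultures. OCLN signals were 2011 and 2965 in monolayers and 3491 and 5093 in MCS. The lower MCS array was only modestly above the higher monolayer array. The log2 difference was 0.78 ± 0.21 (limma, adjusted p = 0.0115), and it fell to 0.51 without spheroid replicate 2, where it was no longer called (limma, adjusted p = 0.119). Without monolayer replicate 1 it was 0.50. It also lost its call when genes of any signal were tested (limma, adjusted p = 0.066).

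The scaffolds TJP1 and TJP3 differed from each other. TJP1, which encodes ZO-1, had signals of 6091 and 6723 in monolayers and 6120 and 8193 in MCS. The groups overlapped, and the log2 difference of 0.15 ± 0.15 was not called (95% interval -0.19 to 0.48, limma, adjusted p = 0.483). It was -0.064 without spheroid replicate 2. TJP3, which encodes ZO-3, a ZO protein restricted mostly to epithelia, had signals of 280.3 and 114.9 in monolayers and 704.6 and 546.1 in MCS. Both MCS arrays were above both monolayer arrays, although the monolayer arrays were themselves far apart. The log2 difference was 1.61 ± 0.34 (limma, adjusted p = 0.00254) and was 1.06 when monolayer replicate 2 was left out and 2.15 when monolayer replicate 1 was.

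**Figure D1:**
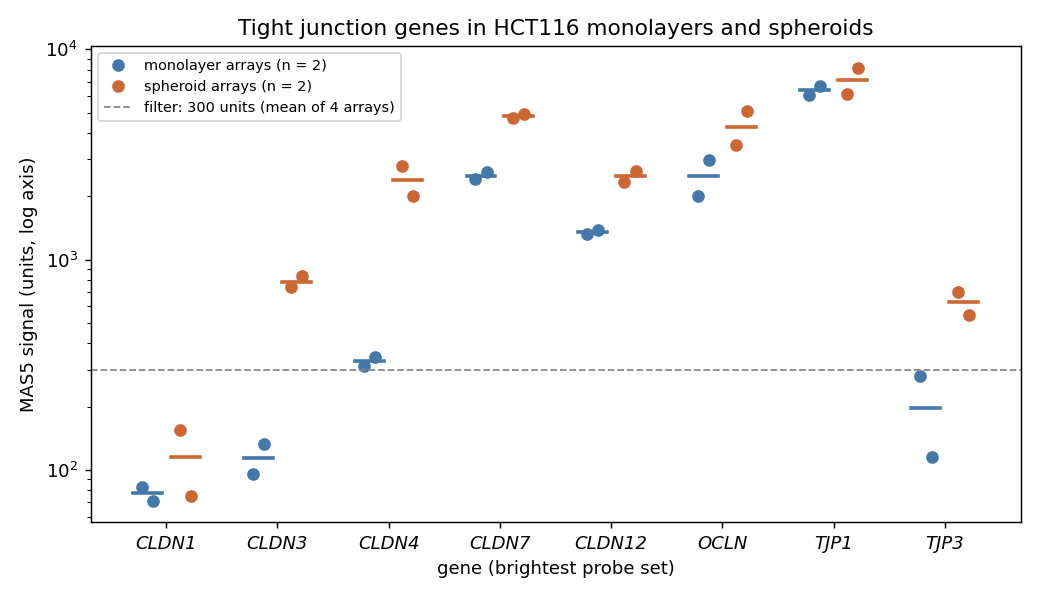
MAS5 signal on each array (y, log axis) of the brightest probe set of 8 tight junction genes (x), with blue points for the 2 monolayer arrays, orange points for the 2 spheroid arrays and bars at the group means. The groups overlap for CLDN1 and TJP1; the widest gaps are those of CLDN3 and CLDN4, whose spheroid means are 6.91-fold and 7.27-fold above the monolayer means.

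In all, 6 of the 7 tested genes were called higher in MCS, 0 were called lower and 1, TJP1, was not called (limma, adjusted p under 0.05). Of all 8721 tested genes, 19% were called higher and 20.6% lower. Their median log2 difference was -0.03, and that of the 7 tight junction genes 0.94. CLDN3 and TJP3 had monolayer means of 113.9 and 197.6 and passed the threshold of 300 only through their MCS signals. The set was also chosen with earlier results of these data known. The count and the median are therefore descriptions of the genes tested. Both spheroid arrays lay above both monolayer arrays for the same 6 genes and below them for 0, against 33.4% above and 36.6% below among all tested genes. Of the 16 probe sets, tested or not, 12 had both spheroid arrays above, against 27.9% of all probe sets that are not controls.

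The differences were also set against that of TJP1 within each array, which largely removes the scaling of the array. This comparison was chosen with results of these data known. TJP1 was the only tested gene of the set not called, so the other genes exceeding it was largely fixed by that choice. The values below are descriptions. CLDN4 changed by 2.58 more than TJP1 on the log2 scale, and the 4 pairings of 1 spheroid with 1 monolayer array lay within 2.14 to 3.03. For CLDN3 the value was 2.35 (2.11 to 2.60) and for TJP3 1.46 (0.46 to 2.46). CLDN7, CLDN12 and OCLN changed by 0.79 (0.60 to 0.98), 0.71 (0.55 to 0.88) and 0.63 (0.37 to 0.90) more than TJP1. Every pairing was above 0 with this brightest TJP1 probe set. Against the other tested TJP1 probe set, a comparison also chosen after seeing the data, CLDN4 changed by 2.18 more (1.56 to 2.80) and CLDN3 by 1.95 (1.76 to 2.14). The excess of CLDN7 fell to 0.39 (0.020 to 0.76), that of OCLN was 0.23 (0.15 to 0.32), and the pairings reached below 0 for CLDN12 (0.31, -0.028 to 0.66) and TJP3 (1.06, -0.12 to 2.24).

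Different probe sets of a gene pointed mostly the same way. In a fit over all 15911 probe sets above 300 units, of which 16.8% were called higher and 16.6% lower, 8 of the 11 member probe sets tested were called higher and 0 lower. Of these 11, 3 passed the threshold only through their MCS signals, both of CLDN3 and that of TJP3, so this count too is a description. The second CLDN3 probe set gave 137.5 and 104.6 in monolayers and 789.8 and 576.1 in MCS, with a log2 difference of 2.22 ± 0.28 (limma, adjusted p = 3.34e-04). Both CLDN3 probe sets carry suffixes that mark possible matches to other transcripts, so their signal may include related sequences. A second OCLN probe set was called (0.73 ± 0.22; limma, adjusted p = 0.0299) and another tested one was not (0.61 ± 0.28; limma, adjusted p = 0.119).

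The probe sets of TJP1 did not place the arrays alike. Its dimmer probe set gave 540.5 and 746.4 in monolayers and 795.2 and 1117 in MCS, which did not overlap, but the log2 difference of 0.55 ± 0.24 was not called (limma, adjusted p = 0.11). Of the 5 member probe sets below the threshold, the second of TJP3 was higher in MCS (427.1 and 368.1, against 107.7 and 119.3 in monolayers), as was the fourth of OCLN (163.9 and 264.5, against 110.4 and 92.7). A second CLDN4 probe set ran the other way, at 57.9 and 78.0 in monolayers and 27.6 and 12.1 in MCS. The MCS values were within the range of the unspiked controls over the 4 arrays, and the monolayer values above it. The remaining pair belonged to CLDN1.

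**Figure D2:**
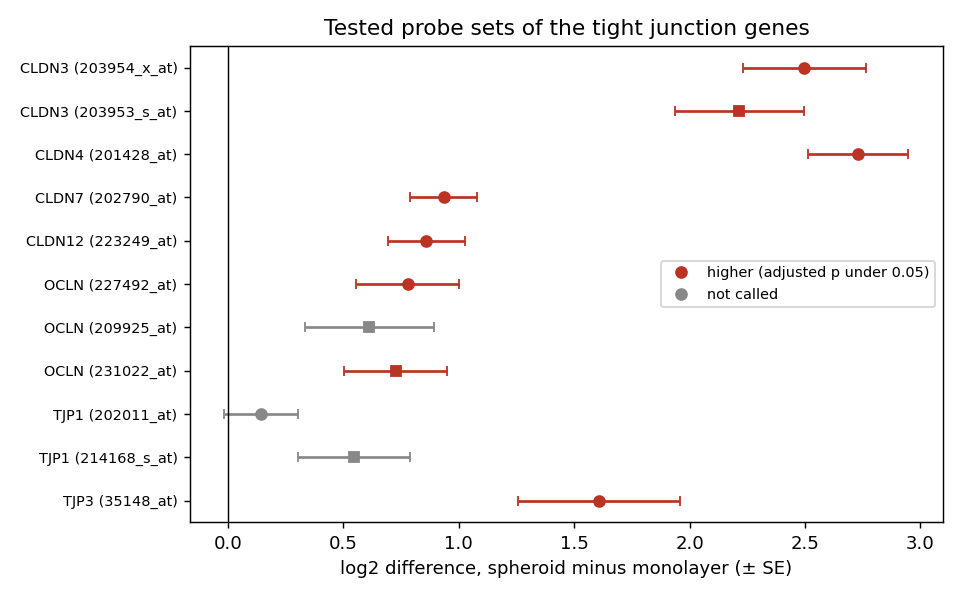
Log2 difference, spheroid minus monolayer (x, bars are standard errors, n = 2 per group) of the 11 tested probe sets (y), as circles for the brightest probe set of a gene and squares for the others. The 8 red probe sets were called higher and the 3 grey ones, 1 of OCLN and both of TJP1, were not called.

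All of these differences depend on how the arrays are scaled. Each had been scaled to a trimmed mean of 500.1, while Bacillus control RNAs were 1.82-fold brighter on the spheroid arrays. The mean log2 signal of these controls was 9.45 and 9.62 on the monolayer arrays and 10.68 and 10.12 on the spheroid arrays. It thus also differed between the spheroid arrays. Scaling to those controls moved the all-gene median to -0.87, and the numbers of genes called higher and lower changed from 1656 and 1799 to 183 and 3996. CLDN4 and CLDN3 were still called higher (1.91 and 1.74), whereas TJP3 (0.82), CLDN7 (0.080) and CLDN12 (0.013) were not called, OCLN turned to -0.074 and TJP1 to -0.71. Each array started from the same mass of total RNA and no cell counts were given, so neither scaling measures RNA per cell. Which of them is the more accurate was not tested. Other values that moved with culture type were the 3′ over 5′ signal ratio of ACTB, at 2.64 and 2.34 in monolayers and above 2.8 in both MCS arrays, and that of GAPDH, at 1.02 to 1.07 and 0.921 to 0.931. Their part in these results was not tested.

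**Figure D3:**
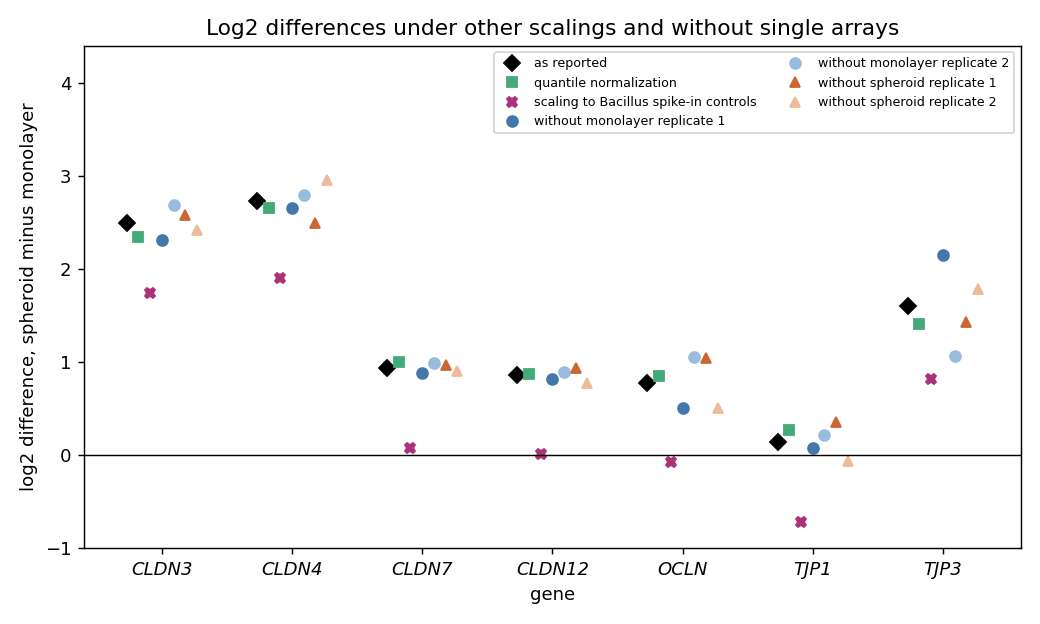
Log2 difference (y) of the 7 tested tight junction genes (x) as reported (black), after quantile normalization (green), after scaling to Bacillus control RNAs (purple) and without each array in turn (blue and orange). CLDN3 and CLDN4 stay at or above 1.74 in all settings plotted, and scaling to the controls brings CLDN7, CLDN12 and OCLN to between -0.074 and 0.080.

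The cells were epithelial by their markers. Of 9 epithelial markers, 5 exceeded 300 units, among them EPCAM (25873 to 29021 on the 4 arrays) and the keratin gene KRT18, although the intestinal markers CDX1, CDH17, KRT20 and VIL1 did not. Their summed signal was 80757 and 88375 in monolayers and 95278 and 91609 in MCS. CDH1, which encodes the adherens junction protein E-cadherin, had signals of 1213 and 1835 in monolayers and 4643 and 5419 in MCS, a log2 difference of 1.73 ± 0.19 (limma, adjusted p = 4.15e-05). Of the 5 tested, 2 were called higher, CDH1 and KRT19 (0.79), and 3 were not called. Of all tested genes, 19% were called higher and 20.6% lower. EPCAM differed by 0.016 ± 0.11 (limma, adjusted p = 0.921). The keratin gene KRT8 had both MCS arrays below the monolayer arrays, at 7851 and 6056 in monolayers and 5962 and 4003 in MCS (-0.49 ± 0.19; limma, adjusted p = 0.0534). It was called lower when monolayer replicate 2 (-0.68) or spheroid replicate 1 (-0.78) was left out, and with scaling to the Bacillus controls (-1.35). Mesenchymal markers were dimmer but also differed, with a summed signal of 1395 to 1679 in monolayers and 4036 to 4203 in MCS. Of the 9, 3 were tested and all 3 were called higher, beside 19% of all tested genes. These 3 were COL1A1 (1.64), ACTA2 (1.08) and VIM (0.92). The call of ACTA2 was lost without spheroid replicate 1 (0.94), and that of VIM without spheroid replicate 1 (0.55) or monolayer replicate 1 (0.69) and after quantile normalization (0.75). All 3 lost it with scaling to the Bacillus controls, where CDH1 (0.88), KRT19 (-0.069) and EPCAM (-0.85) were not called either. With that scaling KRT18 was called lower (-0.97). As first scaled, the difference of KRT18 was -0.11. Without single arrays it ran from -0.32, with monolayer replicate 1 left out, to 0.093, with monolayer replicate 2 left out. Its decrease was thus not confined to the Bacillus scaling. ACTA2 and VIM passed the threshold of 300 only through their MCS signals. Of the 6 mesenchymal markers below the threshold, FN1 had signals of 240.6 and 156.8 in monolayers and 356.7 and 440.8 in MCS, SPARC had 6.04 and 28.2 in monolayers and 262.3 and 40.0 in MCS, and PDGFRB, COL3A1, COL1A2 and CDH2 were at most 62.4 on any array. The part of these markers in the claudin differences was not tested. Leukocyte markers (3 genes) and endothelial markers (4 genes) had no member above 300 units on average.

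Claudins outside the set were mostly dim. Of 15 with a probe set, only CLDN15, a pore-forming claudin of the intestine, was tested, with signals of 474.8 and 475.0 in monolayers and 600.9 and 686.8 in MCS (0.41 ± 0.22; limma, adjusted p = 0.155).

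Other proteins of the tight junction were higher in some cases and not called in most. Of 16 tested membrane and plaque proteins, 4 were called higher, 1 lower and 11 were not called. The shares over all tested genes were 19% higher and 20.6% lower, so the number called higher was near that background. LSR, a protein of the corners where cells meet, had signals of 1828 and 1021 in monolayers and 3645 and 2350 in MCS (1.08 ± 0.26; limma, adjusted p = 0.00598). Leaving out spheroid replicate 1 ended this call (0.77), and leaving out monolayer replicate 2 lowered the difference to 0.67. The adhesion molecule CXADR was higher by 0.85 ± 0.19, a call lost without spheroid replicate 2 (0.53). In the fit over all probe sets, 3 of 4 tested CXADR probe sets were called higher and 0 lower. The scaffold PATJ had signals of 519.7 and 565.4 in monolayers and 1413 and 1594 in MCS (1.42 ± 0.19; limma, adjusted p = 1.51e-04). AFDN, which links junctions to actin, was higher by 0.68 ± 0.18, a call lost without spheroid replicate 2 (0.58). AMOTL2, an angiomotin that binds YAP, was the lower gene, with signals of 1140 and 1459 in monolayers and 660.3 and 703.1 in MCS (-0.89 ± 0.20; limma, adjusted p = 0.00409). The tricellular junction protein MARVELD2, which is the neighbour of OCLN in the genome, was not called (-0.20 ± 0.18).

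Polarity genes were likewise mostly not called. Of 11 tested, 3 were called higher, 1 lower and 7 were not called, counts near the 19% and 20.6% of all tested genes, with a median of 0.12. PARD3, the scaffold of the apical PAR complex, had signals of 1046 and 1013 in monolayers and 2388 and 1951 in MCS (1.05 ± 0.18; limma, adjusted p = 6.92e-04). The atypical protein kinases C of the same complex were also higher, PRKCI by 0.75 ± 0.23 and PRKCZ by 0.65 ± 0.18. In the fit over all probe sets, 2 of 3 tested probe sets of PARD3 and 1 of 2 of PRKCI were called higher, and 0 lower. The basolateral scaffold SCRIB was lower (-0.60 ± 0.16). PRKCI was no longer called when monolayer replicate 1 (0.60) or spheroid replicate 2 (0.64) was omitted. The call of PRKCZ ended without spheroid replicate 1 (0.49) and that of SCRIB without monolayer replicate 2 (-0.56) or spheroid replicate 1 (-0.46).

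Among partners and modifiers of junction proteins, 4 of 12 tested genes were called higher and 0 lower, beside 19% and 20.6% of all tested genes, and their median was 0.099. PRSS8 passed the threshold only through its MCS signals. This gene, a membrane-anchored serine protease of epithelia, had signals of 212.6 and 159.3 in monolayers and 791.3 and 680.4 in MCS (1.82 ± 0.25; limma, adjusted p = 1.71e-04). The protease inhibitors SPINT1 and SPINT2 were higher by 1.01 ± 0.20 and 0.62 ± 0.14, and the hyaluronan receptor CD44 by 0.64 ± 0.11. The kinase genes ROCK1 and ROCK2 and the GTPase gene RHOA, regulators of junctional actin, were not called.

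A further list held transcription factors that promote the epithelial state, labelled activators below for short. Of these, 5 of 6 tested genes were called higher and 0 lower, beside 19% and 20.6% of all tested genes. Of the 10 with a probe set, CDX1, CDX2, GRHL3 and OVOL2 were below 300 units and not tested, with CDX1 (139.1 and 16.2 in monolayers, 18.9 and 31.2 in MCS) and OVOL2 (164.1 and 163.1, against 154.6 and 128.8) lower on average in MCS. ELF3, an ETS factor of epithelia, had signals of 735.5 and 469.7 in monolayers and 4062 and 4156 in MCS (2.74 ± 0.21; limma, adjusted p = 1.76e-06). The gut differentiation factor KLF4 was higher by 2.15 ± 0.19, KLF5 by 1.46 ± 0.18 and GRHL2, a grainyhead factor that binds claudin genes, by 0.67 ± 0.25 (limma, adjusted p = 0.0471). The call of GRHL2 was lost after quantile normalization (0.56) and when either monolayer replicate (0.72 without the first and 0.63 without the second) or the second spheroid replicate (0.34) was left out, and its probe set was not called in the fit over all probe sets. The listed repressors of epithelial genes all stayed below 300 units on average, 6 of 6 with a probe set. SNAI1 and ZEB1, chosen after their values were seen, had signals of 127.7 and 78.5 and of 195.3 and 242.5 in monolayers, against 152.8 and 146.6 and 229.4 and 371.9 in MCS. With scaling to the Bacillus controls, the counts of higher and lower genes became 0 and 4 for the 16 other junction proteins. They were 0 and 2 for polarity genes, 1 and 4 for partners and modifiers, and 2 and 0 for activators. Over all 8721 tested genes the counts became 183 and 3996, with a median log2 difference of -0.87. ELF3, KLF4 and PRSS8 were still called higher (1.90, 1.30 and 1.04) and AMOTL2 and SCRIB lower, while CXADR, AFDN, PRKCI, PRKCZ, CD44, SPINT2, GRHL2 and the neighbour of CLDN3 described next, ABHD11, turned to values between -0.24 and -0.0095, none of them called.

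**Figure D4:**
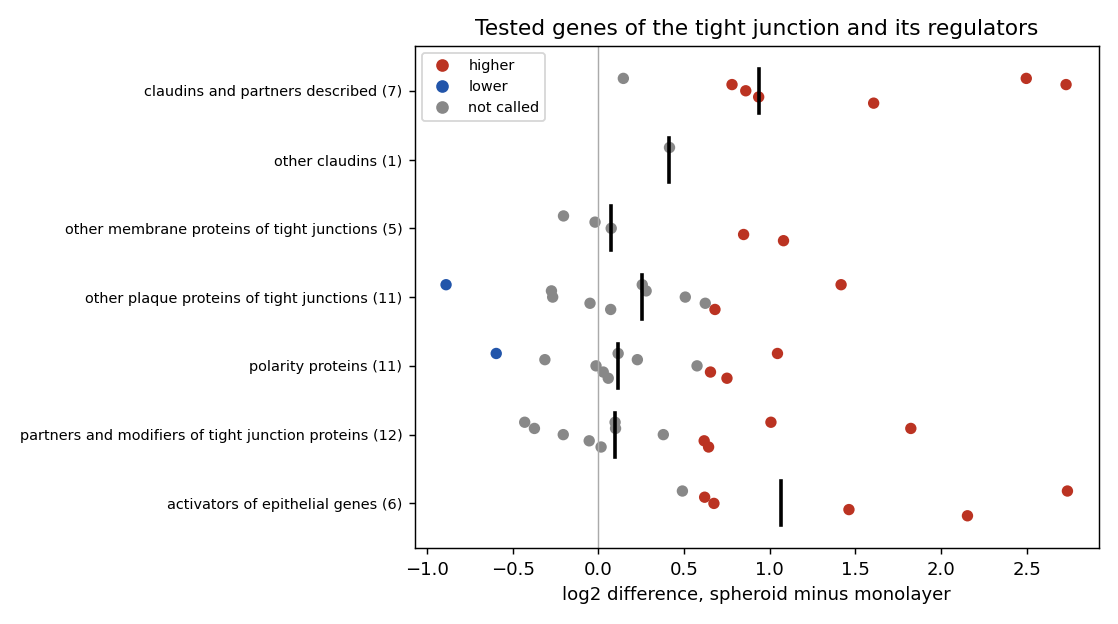
Log2 difference (x) of each tested gene of the tight junction set and of 6 related lists (y, with the tested number of each in brackets). Red points were called higher, blue points lower and grey points neither way, and the black bar is the median. Medians were 0.94 for the tight junction set and 1.07 for the activators of epithelial genes, and between 0.075 and 0.41 for the other lists. With scaling to Bacillus controls these other medians were between -0.75 and -0.40, beside an all-gene median of -0.87.

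CLDN3 and CLDN4 are neighbours among protein-coding genes in the RefSeq annotation of GRCh38.p14. The next gene beside CLDN3, ABHD11, chosen after its value was seen, had signals of 1294 and 1597 in monolayers and 2451 and 2109 in MCS, a log2 difference of 0.65 ± 0.18 (limma, adjusted p = 0.0119). It was no longer called when monolayer replicate 1 (0.50) or spheroid replicate 1 (0.54) was left out. STX1A, the gene beyond it, was not called (-0.081 ± 0.24). The large difference was thus measured for the pair of claudins, a smaller one for ABHD11 and none that passed the test for STX1A. On the CLDN4 side the next genes, METTL27 and TMEM270, had no tested value, so that side was not tested. Tested genes up to 2 places from the other members were mostly not called. The exceptions were ELP5 beside CLDN7, called lower (-0.79 ± 0.17), and IL1RAP near CLDN1, called higher (3.43 ± 0.31). IL1RAP passed the threshold only through its MCS signals.

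The tested genes whose pattern over the 4 arrays was nearest to that of CLDN4 were AHNAK2, CDA and ABCC3. The root mean square distance of their centred log2 values from those of CLDN4 was 0.10, 0.12 and 0.12. AHNAK2, a large scaffold-like protein, had signals of 225.3 and 216.1 in monolayers and 1734 and 1457 in MCS. CDA, cytidine deaminase, had signals of 79.1 and 74.6 in monolayers and 694.4 and 579.9 in MCS. ABCC3, an organic anion exporter, had signals of 152.6 and 161.5 in monolayers and 1432 and 1255 in MCS. In each of them, as in CLDN4, spheroid replicate 1 was the brightest array. They were chosen for their closeness to CLDN4 over these same arrays, so the shared brightest array is not independent of that choice. AHNAK2, CDA and ABCC3 each passed the signal threshold for testing only through their MCS signals.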

How the data were processed

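Total RNA from 2 monolayer and 2 spheroid cultures of HCT116 cells, described as independent, was labelled with biotin and hybridized to Affymetrix arrays, 1 for each culture. Signal intensity on a linear scale, 1 value per probe set, is what the authors deposited after MAS5 normalization (version not given in the sources used here). Of 54675 probe sets, 62 were controls and 41091 others had 1 gene symbol in the platform annotation. Matching by gene ID to RefSeq (GRCh38.p14) changed 0 symbols.

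Signals were taken as log2(signal + 32), which makes changes of dim genes look smaller. A probe set was kept if its 4 signals averaged over 300, and each gene was represented by its brightest one. The test between groups was that of limma (3.58.1, in R 4.3.3; lmFit, eBayes with intensity trend, two-sided, Benjamini-Hochberg over 8721 genes); residual and prior degrees of freedom were 2 and 10.5. The number of arrays limits the precision. A second fit used all 15911 probe sets above 300. On simulated data with the same number of genes, 8721, log2 changes of 0.5, 1 and 2 were given to 67, 67 and 66 genes. The fit recovered 5.97%, 73.1% and 98.5% of these, with 9 unchanged genes among 127 calls. In the data, 1656 genes were called higher and 1799 lower, far more than were changed in the simulation, so these rates need not hold for the data.

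The members, lists and tests were chosen with earlier results of these data known. All members were named; of each related list, the up to 4 called genes with the largest differences and no overlap of groups were named, or the 2 with the smallest p; and 3 genes nearest in pattern to the member with the largest difference. A gene outside this rule was picked with its values in view, apart from cell type markers. Promoter windows came from RefSeq tables. Settings also tried were other thresholds on signal, other added constants, other scalings, other rules for probe sets, a fit without trend, a block for replicate number, the omission of each array, and the plain test that the methods name for other assays.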

Additional observations from a re-analysis of the deposited data

How the results depend on the processing

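CLDN3, CLDN4, CLDN7 and CLDN12 kept their direction under every alternative and their call without each array in turn. Without single arrays the log2 difference ran from 2.31 to 2.69 for CLDN3, 2.50 to 2.96 for CLDN4, 0.88 to 0.99 for CLDN7, 0.78 to 0.94 for CLDN12, 1.06 to 2.15 for TJP3, 0.50 to 1.06 for OCLN and -0.064 to 0.35 for TJP1. There were 5 to 6 genes of the set called higher and 0 lower, and the median ran from 0.88 to 1.06. Over all genes 1208 to 1502 were called higher and 1362 to 1484 lower. With no signal threshold OCLN lost its call (0.78, limma adjusted p = 0.066). Scaling to the Bacillus controls left 2 genes of the set called higher, CLDN3 and CLDN4. It gave 0.080 for CLDN7, 0.013 for CLDN12, 0.82 for TJP3, -0.074 for OCLN and -0.71 for TJP1, with a median of 0.080 and 183 higher and 3996 lower genes over all. Leaving out _x_at and _s_at probe sets gave 1114 lower genes, with only 6094 genes tested, and no value for CLDN3. The methods' t-test without adjustment called neither OCLN (0.78) nor TJP3 (1.61). After Benjamini-Hochberg it called 1 gene higher and 1 lower of all genes and 0 of the set, with log2 differences as above (2.50 for CLDN3, 2.73 for CLDN4, 0.94 for CLDN7, 0.86 for CLDN12, 0.78 for OCLN and 1.61 for TJP3). Where no cause is given, the cause was not tested.

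Same-numbered arrays deviated together (correlation 0.32 across genes), but the labels do not say that a number marks a shared batch. With the replicate number as a block, 2114 genes were called higher and 2301 lower, and the count for the set stayed at 6 higher and 0 lower, with CLDN4 at 2.73 and TJP1, not called, at 0.15. With 2 arrays per group, changes the size of that of TJP1 could not be resolved.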
